A study of Mus musculus with 8 samples.

Results

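The AP-1 family and its small Maf relatives were followed across 8 RNA sequencing libraries of 4T1, a cell line derived from a mammary carcinoma of the mouse that metastasises when transplanted. The set holds 10 genes, Fos, Fosb, Fosl1, Fosl2, Jun, Junb, Jund, Atf3, Maff and Mafk, found by Entrez Gene number among the 24454 genes listed, and all 10 were found. Every library came from cells that had been infected with lentivirus carrying a short hairpin RNA and selected with puromycin. The hairpin was directed against murine MEK5 in 2 libraries (shMEK5, titled shMEK5-2), against murine ERK5 in 3 libraries (shERK5, titled shERK5-1), and was non-targeting in 3 libraries (shCTRL). Each target was met by 1 hairpin and each hairpin by 1 selected line, so the effect of a target cannot be told apart from that of its hairpin or line. Separate cultures are not mentioned for the replicates in the labels, so the p-values take in no more than the spread between libraries, and that spread may be technical.

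AP-1 is not a single protein but a family of leucine zipper dimers. Jun proteins pair with each other or with Fos proteins, Fos proteins need a Jun partner, and the choice of partners sets which genes the dimer switches on. Fos, Fosb, Jun and Junb are classic immediate early genes, induced within minutes of growth factor or stress signals, whereas Fosl1 (FRA-1) and Fosl2 (FRA-2), which lack the strong activation domain of Fos, are the Fos members that carcinoma cells with mesenchymal traits tend to keep on. ATF3 is a stress-induced partner of Jun that can also repress. The small Maf proteins MAFF and MAFK have no activation domain of their own. They bind DNA as partners of NRF2 or of the BACH repressors at antioxidant response elements. MEK5 is the kinase that activates ERK5, and ERK5 phosphorylates transcription factors of the MEF2 family.

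The promoter windows of Maff, Jun and Atf3 are shown as examples of genes that changed in a knockdown and hold matches to AP-1 related motifs or to the MEF2 box. Fos also meets these conditions, but its window is not printed. The windows are from RefSeq on GRCm38.p6, run from 250 bases before to 50 bases after an annotated start, and are printed 5′ to 3′ on the strand of the gene. Capitals mark motif matches. The Maff window lies at chr15:79347270-79347569 on the plus strand, the Jun window at chr4:95052173-95052472 on the minus strand, and the Atf3 window at chr1:191183284-191183583 on the minus strand.
Maff, the second of 3 annotated starts: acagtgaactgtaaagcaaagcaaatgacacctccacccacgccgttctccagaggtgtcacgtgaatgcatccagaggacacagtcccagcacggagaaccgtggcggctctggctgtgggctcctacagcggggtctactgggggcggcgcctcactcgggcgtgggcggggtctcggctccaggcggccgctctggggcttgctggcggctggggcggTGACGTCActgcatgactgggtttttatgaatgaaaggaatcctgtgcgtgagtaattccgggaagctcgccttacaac
Jun: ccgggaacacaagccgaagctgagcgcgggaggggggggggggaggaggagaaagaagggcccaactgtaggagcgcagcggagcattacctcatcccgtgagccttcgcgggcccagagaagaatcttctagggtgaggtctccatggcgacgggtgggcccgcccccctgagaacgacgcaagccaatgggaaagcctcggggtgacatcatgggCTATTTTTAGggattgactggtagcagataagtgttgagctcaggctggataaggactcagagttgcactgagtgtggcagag
Atf3: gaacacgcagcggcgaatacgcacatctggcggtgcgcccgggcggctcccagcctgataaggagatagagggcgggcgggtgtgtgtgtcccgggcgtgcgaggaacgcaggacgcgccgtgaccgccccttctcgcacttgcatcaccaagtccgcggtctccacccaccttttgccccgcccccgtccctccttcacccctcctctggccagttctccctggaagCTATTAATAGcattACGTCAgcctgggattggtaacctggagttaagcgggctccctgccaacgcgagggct

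Each motif was searched on both strands. The Maff window holds the cyclic AMP response element TGACGTCA, which contains the shorter TGACGT on each strand, and 1.79% of the 32851 promoter windows in the table hold that element. The Atf3 window holds TGACGT once, as its reverse complement, as do 7.51% of all windows on either strand. It also holds a MEF2 box, as does the Jun window, and 3.19% of all windows hold one. RefSeq windows were matched for 9 of the 10 genes, all but Fosl1, and number 11 because Maff has 3. An exact match to the AP-1 element TGANTCA was in 0 of the 11, against 7.81% of all windows. Variant forms were not searched for, so stretches such as tgacatca, before the MEF2 box in the Jun window, are not marked. The count therefore covers exact matches only. The CArG box was in 0 of the 11, against 1.63%, and the antioxidant element core TGACNNNGC was in 2, the first Maff start and Mafk, against 12.4%. Sites more than 250 bases before a start were not searched, so an absence holds for the window and not for the gene. The Fos window holds TGACGT at position -66, counted back from the start, and TATAAA, a core promoter element, at position -33. Junb also holds TATAAA, as do 13.6% of all windows, but there it begins at position 1, on the annotated start itself. The windows of Fosl2, Fosb and Jund, and the third Maff start, held none of the 7 motifs searched. For Jund, the RefSeq span of 70697739 to 70700616 is longer than the GENCODE transcript, which has 1 exon of 1668 bp. The Jund window may therefore not lie at the start of that transcript.

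Depth ran from 41397315 to 53714288 gene-assigned reads per library, and values are CPM, reads scaled to a library total of 1000000. The hairpins lowered their targets, with Map2k5, the gene of MEK5, at 14.2 ± 0.216 CPM in shMEK5 against 36.3 ± 0.997 CPM in shCTRL, and Mapk7, the gene of ERK5, at 6.53 ± 0.173 CPM in shERK5 against 26.8 ± 1.6 CPM in shCTRL (SD, n = 2 for shMEK5 and n = 3 for shERK5 and shCTRL). Mapk7 stood at 19.5 ± 1.19 CPM in shMEK5 (SD, n = 2). The 9 genes listed as markers of the line, most of them epithelial, were all present, and summed to 1429 to 1498 CPM in shMEK5, 1886 to 1937 CPM in shERK5 and 1855 to 2042 CPM in shCTRL. Single markers went opposite ways in shERK5, where Krt18 had 753 to 807 CPM against 1026 to 1174 CPM in shCTRL, while Cldn4 had 285 to 291 CPM against 65 to 73.4 CPM and Cdh1 had 103 to 121 CPM against 37.2 to 37.6 CPM. The part of these marker differences in the results was not tested. The 7 fibroblast markers summed to 22.8 to 47.3 CPM over all libraries, with 3 of them at 0. Nearly all of this sum was Pdgfra, at 22.5 to 46.3 CPM, and the other 6 averaged below 1 CPM. Of 5 T and B cell markers 4 were at 0 in all libraries, and the 6 macrophage markers summed to at most 3.8 CPM.

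Maff, a small Maf gene, moved furthest, and in opposite directions in the knockdowns. It was raised to 149% of shCTRL in shMEK5 and lowered to 37.3% of it in shERK5. Fosl2, which encodes FRA-2, rose in both, to 159% of shCTRL in shMEK5 and 186% in shERK5. Jun rose in shMEK5 and Atf3 fell there, while Mafk and the scarcely expressed Fos rose in shERK5. Fosl1, Junb, Jund and Fosb passed the test in no comparison. All 10 genes passed the filter of at least 1 CPM in 2 libraries, 9 of them with at least 1 CPM in all 8 libraries and Fosb in 7. shCTRL replicate 1 was the lowest library of its group for 9 of the 10 genes. In bulk RNA, fewer cells expressing a gene and less of its RNA per cell cannot be told apart.

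Counted over the set, 4 of 10 genes passed the test in shMEK5 against shCTRL, 3 higher and 1 lower, beside 48.7% of all 11623 genes tested, of which 23.1% were higher and 25.6% lower. In shERK5 against shCTRL the count was again 4 of 10, 3 higher and 1 lower, beside 63.3% of all genes, 32% higher and 31.3% lower. Between the knockdowns, 4 of 10 differed, 3 higher and 1 lower in shERK5, beside 39.4% of all genes, 22% higher and 17.4% lower. These shares of 40% lay below the background in both comparisons with shCTRL and near it between the knockdowns, so the family as a set did not stand out. The median absolute log2 fold change of the 10 genes was 0.22 in shMEK5 and 0.24 in shERK5, next to 0.20 and 0.25 over all genes tested. The tests used limma on log2(CPM + 1), with p adjusted by Benjamini-Hochberg over all genes tested and called under 0.05, and fold changes on that scale understate those of low genes.

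**Figure D1:**
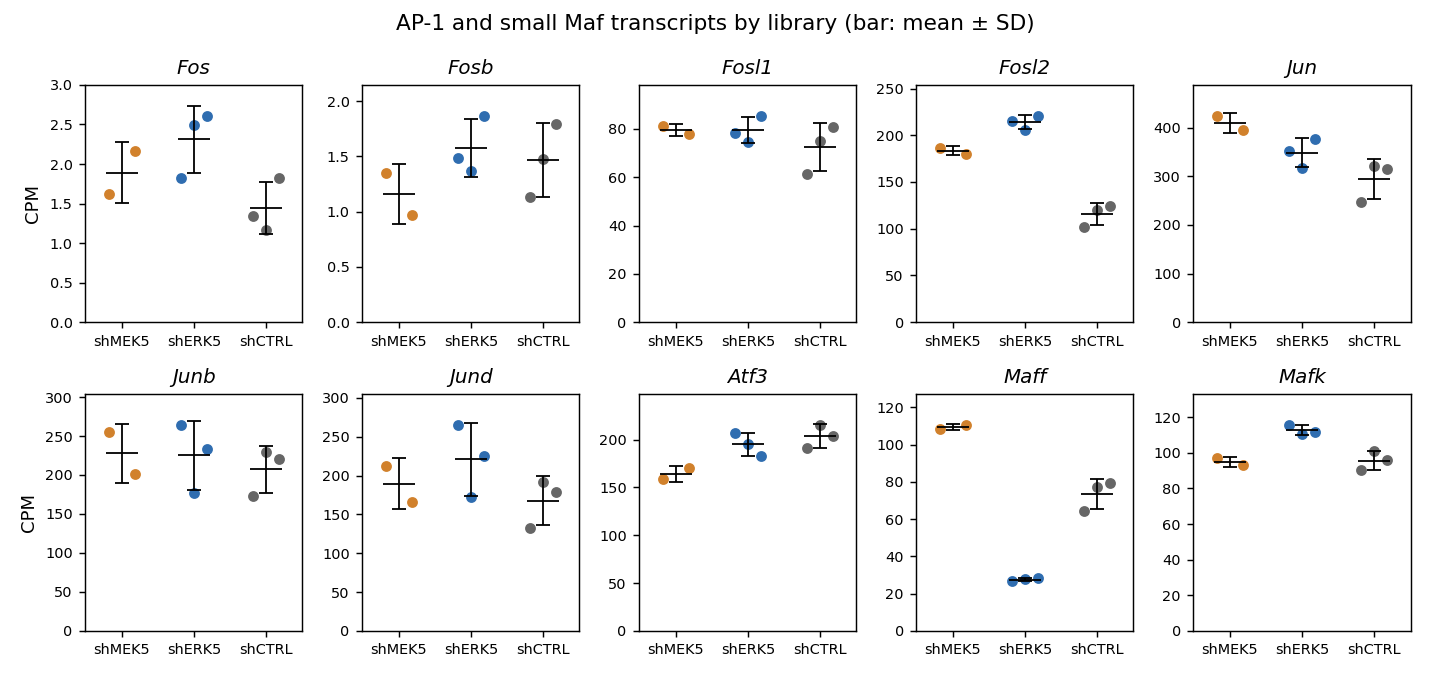
CPM of the 10 genes in each library, with shMEK5 (orange), shERK5 (blue) and shCTRL (grey) from left to right and each axis starting at 0. Points are libraries and bars are mean ± SD. The 3 shERK5 libraries lie between 26.8 and 28.2 CPM for Maff, under every other library, and the Fosl2 points of both knockdowns lie above all shCTRL points.

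Levels of different genes are compared here per kilobase of annotated exon. Fosl1, with 2033 bp of exon, shares 1163 bp with an opposite-strand gene, and Jund, with 1668 bp, shares 877 bp. The use of strand in counting is not given, so their levels and family shares may depend on it. In shCTRL, Jund stood at 101 ± 18.9 CPM per kb, Atf3 at 94.5 ± 5.7, Jun at 92.5 ± 12.8 and Junb at 90.1 ± 13.2 CPM per kb (SD, n = 3 each), and the ranges of neighbours in this order overlapped. Below a gap came Fosl1 at 35.6 ± 4.87, Maff at 28.4 ± 3.13 and Mafk at 24.5 ± 1.38 CPM per kb (SD, n = 3 each), whose neighbouring ranges also overlapped, and then Fosl2 at 11.9 ± 1.22 CPM per kb (SD, n = 3). Of the immediate early genes, Jun and Junb were thus among the highest, whereas Fos and Fosb were the lowest, with Fos at 0.614 ± 0.142 and Fosb at 0.235 ± 0.053 CPM per kb (SD, n = 3 each).

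The order changed with the hairpin in few places. In shMEK5, Jun led at 128 ± 6.48 CPM per kb (SD, n = 2), though its range overlapped that of Jund, and Maff at 42.2 ± 0.703 CPM per kb lay above Fosl1 at 39.1 ± 1.13 CPM per kb (SD, n = 2 each) without overlap. In shERK5, Maff dropped below Fosl2, at 10.6 ± 0.275 against 22.1 ± 0.766 CPM per kb (SD, n = 3 each), again without overlap. Jund, Jun, Junb and Atf3 remained the top 4 genes there, and their neighbouring ranges overlapped. Fos and Fosb were the lowest genes in all 3 groups.

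**Figure D2:**
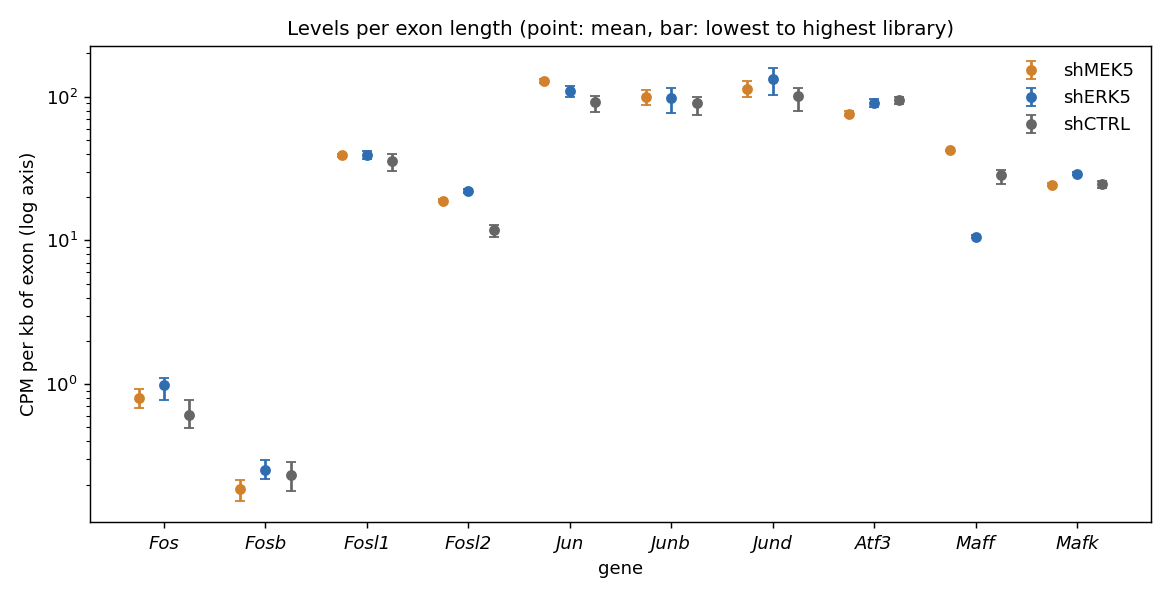
Level of each gene in CPM per kb of exon on a log axis, by group (shMEK5 orange, shERK5 blue, shCTRL grey). Points are group means and bars run from the lowest to the highest library. Fos and Fosb lie at or under 1.11 CPM per kb in every library, far below the 3 Jun genes, and Maff is the gene whose groups are furthest apart.

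Fosl1 and Fosl2 made up nearly all Fos family RNA per length. Fosl2 accounted for between 32 and 32.1% of the family sum in the shMEK5 libraries, for 34.4 to 35.9% in the shERK5 libraries and for 23.9 to 25.3% in the shCTRL libraries, with no overlap between the groups. Fosl1 supplied 66.3 ± 0.209% in shMEK5 (SD, n = 2), 62.6 ± 0.757% in shERK5 and 73.6 ± 0.654% in shCTRL (SD, n = 3 each). The Fosl2 shares depend on the exon length used and were higher with the longest transcript, at 39% in shMEK5, 42.6% in shERK5 and 30.7% in shCTRL. Among the Jun genes, Jun supplied 37.8 ± 2.84% in shMEK5 (SD, n = 2), 32.5 ± 3.55% in shERK5 and 32.7 ± 0.765% in shCTRL (SD, n = 3 each). Per length, the Jun family summed to 341 ± 42.8 CPM per kb in shMEK5 (SD, n = 2), to 340 ± 53.9 in shERK5 and to 283 ± 44.8 in shCTRL (SD, n = 3 each), with overlapping ranges.

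Fosl2 (Entrez Gene 14284; chromosome 5, 32136472 to 32157840, GRCm38) encodes FRA-2. It stood at 187 and 180 CPM in shMEK5, at 215, 206 and 221 CPM in shERK5, and at 102, 120 and 124 CPM in shCTRL. Every knockdown library lay above every shCTRL library, and every shERK5 library above both shMEK5 libraries. Against shCTRL, Fosl2 rose by 0.67 on the log2 scale in shMEK5 (SE 0.08, limma adjusted p = 6.98e-05) and by 0.89 in shERK5 (SE 0.07, limma adjusted p = 2.52e-06). The step between the knockdowns was smaller, 0.22 higher in shERK5 (SE 0.08, limma adjusted p = 0.0431). That last call held in 7 of 18 alternative settings. It was lost with TMM scaling (0.20, limma adjusted p = 0.0731) and RLE scaling (0.20, limma adjusted p = 0.0725). On recovered reads it was lost with edgeR (0.20, adjusted p = 0.072) and DESeq2 (0.20, adjusted p = 0.0668). So it was with no filter (0.22, limma adjusted p = 0.0837) and with the replicate number as a block (0.18, limma adjusted p = 0.0938). Without shCTRL replicate 2 or shERK5 replicates 1 or 3 it did not pass, with limma adjusted p from 0.0541 to 0.126. Without shMEK5 replicate 1 or 2, which leaves 1 library in that group, the call was also lost, at 0.25 and 0.19.

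Fosl1 (Entrez Gene 14283; chromosome 19, 5447698 to 5455938), which encodes FRA-1, had 81.2 and 77.9 CPM in shMEK5, 78.4, 74.7 and 85.4 CPM in shERK5 and 61.5, 74.9 and 80.85 CPM in shCTRL. The groups overlapped, with shCTRL replicate 1 the lowest library. The log2 fold change was 0.14 in shMEK5 (95% interval -0.09 to 0.38, limma adjusted p = 0.283) and 0.14 in shERK5 (-0.07 to 0.35, limma adjusted p = 0.212). A change beyond 1.5-fold on this scale therefore lay outside both intervals. Fosl1 shares 1163 bp of exon with Ccdc85b on the opposite strand, and since the use of strand in counting is not given, reads of this stretch cannot be assigned to either gene.

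Fos (Entrez Gene 14281; chromosome 12, 85473890 to 85477274), the founding member, was low, not far above the filter of 1 CPM. It had 1.62 and 2.17 CPM in shMEK5, 1.82, 2.5 and 2.61 CPM in shERK5 and 1.34, 1.17 and 1.82 CPM in shCTRL, which is between 50 and 133 reads per library. The shERK5 libraries lay above the shCTRL libraries, but the lowest of the one group and the highest of the other both round to 1.82 CPM. The rise in shERK5 was 0.44 (SE 0.13, limma adjusted p = 0.0138) on the log2(CPM + 1) scale, 0.21 with a pseudocount of 4 and 0.67 by edgeR on the recovered reads (adjusted p = 0.0147). It did not pass without shCTRL replicate 2 (0.36, limma adjusted p = 0.0574) or without shERK5 replicate 3 (0.37, limma adjusted p = 0.0568). In shMEK5 the value was 0.25 (95% interval -0.08 to 0.57, limma adjusted p = 0.191). Fosb (Entrez Gene 14282; chromosome 7, 19302696 to 19310118), an activator paralog of Fos, had 46 to 56 reads in shMEK5 libraries, 73 to 83 in shERK5 libraries and 59 to 82 in shCTRL libraries, and passed the test in neither knockdown (limma adjusted p = 0.279 and 0.66).

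Jun (Entrez Gene 16476; chromosome 4, 95049036 to 95052222), the common partner of the family, was its member with the most reads. It had 424 and 395 CPM in shMEK5, 351, 318 and 377 CPM in shERK5 and 248, 322 and 315 CPM in shCTRL. Both shMEK5 libraries lay above all other libraries, whereas shERK5 and shCTRL overlapped. Jun rose in shMEK5 by 0.48 (SE 0.11, limma adjusted p = 0.0079), and without shMEK5 replicate 1 the value was 0.43 with limma adjusted p = 0.0639. In shERK5 it had a log2 fold change of 0.25 (SE 0.10, limma adjusted p = 0.0618). That value passed without shCTRL replicate 2 (0.31, limma adjusted p = 0.036), without shERK5 replicate 2 (0.31, limma adjusted p = 0.0411) and by DESeq2 (0.24, adjusted p = 0.0383). Between shERK5 and shMEK5 the difference was -0.24 (95% interval -0.50 to 0.03, limma adjusted p = 0.137). It passed without shCTRL replicate 1 (limma adjusted p = 0.0215) and with only these groups fitted (limma adjusted p = 0.0438).

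Junb and Jund, partners of Fos proteins that activate less than Jun, varied widely within groups. Junb (Entrez Gene 16477; chromosome 8, 84976909 to 84978748) had 255 and 201 CPM in shMEK5, 265, 177 and 234 CPM in shERK5 and 173, 229 and 220 CPM in shCTRL. Jund (Entrez Gene 16478; chromosome 8, 70697739 to 70700616) had 213 and 166 CPM in shMEK5, 266, 172 and 225 CPM in shERK5 and 132, 192 and 179 CPM in shCTRL. The libraries kept the same rank for both genes within each group, with shERK5 replicate 2, shMEK5 replicate 2 and shCTRL replicate 1 lowest. Jun, Fosl1, Fosl2, Fosb and Mafk were also lowest in those libraries, so this rank was not particular to Junb and Jund. Jun, Junb and Jund have 1 exon, Mafk has 3, and Fosl1, Fosl2 and Fosb have 4 each. The GC content of the transcript was 62.6% in Junb, 67.1% in Jund and 53.1% in Fosl2. The Junb and Jund values lay above those of 98.8% and 99.9% of tested genes with a sequence.

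The same libraries were the lowest of their groups for GC-rich transcripts in general. For the 1116 tested genes with a transcript GC content of at least 57.9%, the median deviation from the group mean was -0.02 in shMEK5 replicate 2, -0.04 in shERK5 replicate 2 and -0.05 in shCTRL replicate 1, on the log2 scale. The deviations of Jund in these libraries were larger, at -0.18, -0.34 and -0.32. The part of GC content in the spread of Junb and Jund was not tested. The log2 fold change of Junb was 0.14 in shMEK5 (95% interval -0.30 to 0.58) and 0.11 in shERK5 (-0.29 to 0.51), and that of Jund was 0.18 (-0.32 to 0.69) and 0.39 (-0.06 to 0.84), with limma adjusted p between 0.114 and 0.598. Without shERK5 replicate 2, Jund passed in shERK5 (0.56, limma adjusted p = 0.041). Junb shares 173 bp of exon with Prdx2 on the opposite strand, Jund 877 bp with an antisense gene and Jun 232 bp with the antisense gene Junos.

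Atf3 (Entrez Gene 11910; chromosome 1, 191170296 to 191183333), a stress-induced gene, was abundant in all groups. It had 158 and 170 CPM in shMEK5, 207, 196 and 183 CPM in shERK5 and 191, 216 and 204 CPM in shCTRL. Both shMEK5 libraries lay under all other libraries, and shERK5 overlapped shCTRL. Atf3 fell in shMEK5 by 0.31 (SE 0.07, limma adjusted p = 0.004) on the log2 scale. In shERK5 the value was -0.06 (95% interval -0.20 to 0.08, limma adjusted p = 0.41). The difference between the knockdowns, 0.25 higher in shERK5 (SE 0.07, limma adjusted p = 0.0154), did not pass without shMEK5 replicate 1 (0.20, limma adjusted p = 0.136).

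**Figure D3:**
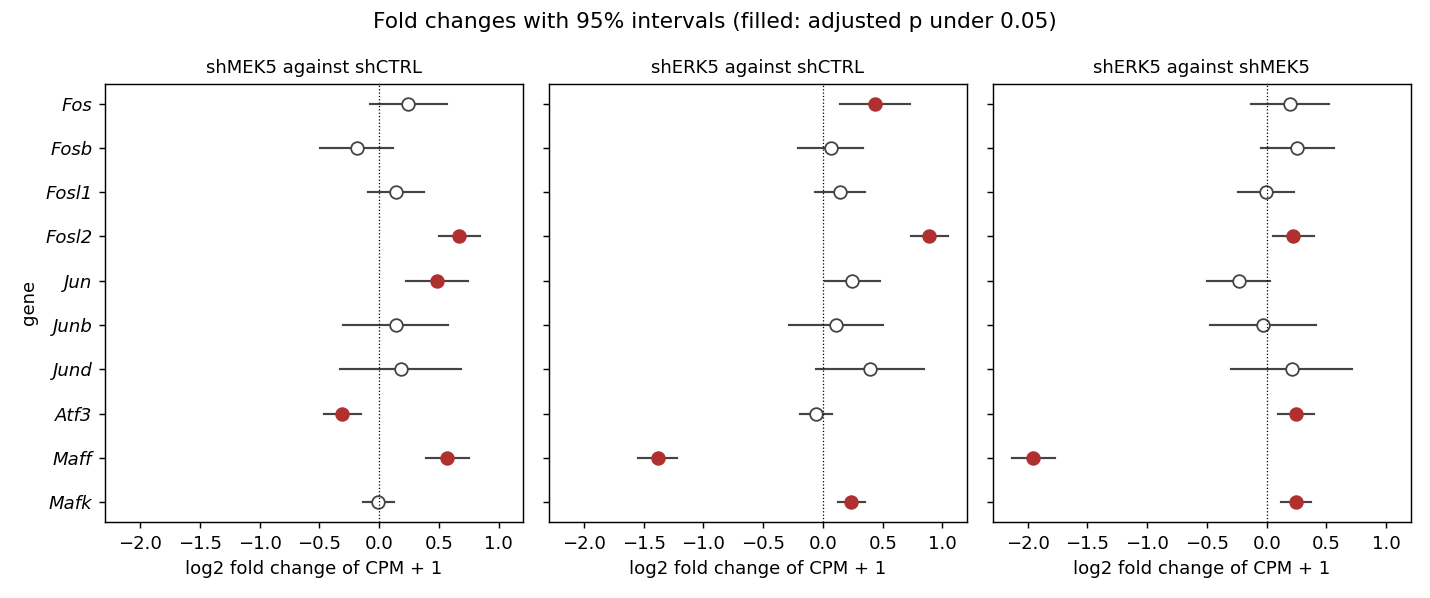
log2 fold change of CPM + 1 for each gene with its 95% interval from limma, in shMEK5 against shCTRL, shERK5 against shCTRL and shERK5 against shMEK5. Filled points passed at adjusted p under 0.05. Maff lies at 0.57 in the left panel, at -1.38 in the middle and at -1.95 on the right, and the wide intervals of Junb and Jund cross 0 in all 3 panels.

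Maff (Entrez Gene 17133; chromosome 15, 79346621 to 79359078) encodes a small Maf protein that is itself inducible by stress and cytokines. It had 108 and 111 CPM in shMEK5, 26.8, 27.7 and 28.2 CPM in shERK5 and 64.5, 77.1 and 79.6 CPM in shCTRL. No group overlapped another. Maff rose in shMEK5 by 0.57 (SE 0.08, limma adjusted p = 0.000273) and fell in shERK5 by 1.38 (SE 0.07, limma adjusted p = 2.23e-07) on the log2 scale. The direct difference between the knockdowns was -1.95 (SE 0.08, limma adjusted p = 1.52e-07), the 16th lowest of 11623 genes tested in shERK5 against shMEK5.

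Calls in opposite directions like those of Maff were made for few genes. Of 11623 tested genes, 157 were called higher in shMEK5 and lower in shERK5, and 190 the other way round. Both comparisons share the shCTRL libraries. All 18 alternative settings kept the Maff calls. The shMEK5 value ranged from 0.48 to 0.63 and the shERK5 value from -1.48 to -1.30. No other gene overlaps Maff in the GENCODE annotation.

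Mafk (Entrez Gene 17135; chromosome 5, 139791536 to 139802653), the constitutive small Maf, behaved differently. It had 97.1 and 93.1 CPM in shMEK5, 116, 111 and 112 CPM in shERK5 and 90.2, 101 and 95.8 CPM in shCTRL. The shERK5 libraries lay above all others, and shMEK5 fell within the shCTRL range. Mafk rose in shERK5 by 0.24 (SE 0.05, limma adjusted p = 0.00227), while its value in shMEK5 was -0.01 (95% interval -0.13 to 0.12, limma adjusted p = 0.934). Between the knockdowns it was 0.24 higher in shERK5 (SE 0.06, limma adjusted p = 0.00682), which did not pass without shMEK5 replicate 2 (0.21, limma adjusted p = 0.0619). Mafg, the third small Maf gene, averaged 91.3 ± 6.27 CPM in shMEK5 (SD, n = 2), 93.5 ± 2.7 CPM in shERK5 and 90.2 ± 4.66 CPM in shCTRL (SD, n = 3 each), with limma adjusted p = 0.841 and 0.424 against shCTRL. Mafk shares 169 bp of exon with Tmem184a on the opposite strand.

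The genes with the pattern closest to Maff over the 8 libraries were Pdcd2 (Pearson r = 0.996) and Ptpn13, a phosphatase gene (r = 0.993). Ptpn13 averaged 18.7 ± 0.272 CPM in shMEK5 (SD, n = 2), 4.82 ± 0.435 CPM in shERK5 and 12.1 ± 0.703 CPM in shCTRL (SD, n = 3 each). Closest to Fosl2 were Cox14 (r = 0.998) and Saysd1 (r = 0.997). Closest to Mafk were Psmd6, a proteasome subunit gene (r = 0.995), and Mrps31, a mitochondrial ribosome gene (r = 0.986). Jun was followed by Fam171a1 (r = 0.975) and Alyref2 (r = 0.974), and Atf3 by Mettl21a (r = 0.964) and Mxd1 (r = 0.96). Junb was nearest to Ier5l (r = 0.984) and Gon7 (r = 0.97), and Jund to Ccdc85b (r = 0.983), the gene that overlaps Fosl1, and Dohh (r = 0.973). These correlations of log2(CPM + 1) describe 8 libraries that share 3 group levels, and each pair is the top of 9759 candidates.

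The genes around AP-1 were described from 5 lists, beside the 23.1% higher and 25.6% lower of all tested genes in shMEK5, and the 32% higher and 31.3% lower in shERK5. Of the 30 tested of 35 genes reported as AP-1 targets, 17 were higher and 12 lower in shMEK5, with a median log2 fold change of 0.24 (all genes -0.02). In shERK5, 8 were higher and 16 lower, with a median of -0.27 (all genes 0.00). The matrix protease gene Mmp3 averaged 56.6 ± 0.312 CPM in shMEK5 (SD, n = 2), 44.1 ± 2.82 CPM in shERK5 and 244 ± 43.7 CPM in shCTRL (SD, n = 3 each), and fell in both. Vim, the mesenchymal filament gene, fell by 1.17 in shMEK5 and by 1.68 in shERK5, and Spp1, osteopontin, by 1.13 and 0.61. Plau, the urokinase gene, rose in both, by 0.68 (SE 0.06) in shMEK5 and by 1.08 (SE 0.05) in shERK5, as did the integrin gene Itga5, by 0.30 and 0.48.

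Of these targets, Ccl2, Tnc, Cd44, Ccnd1, Axl and Fn1 moved in opposite directions, as Maff did. Over all 11623 genes tested, 157 were called higher in shMEK5 and lower in shERK5. Ccl2, a monocyte chemokine gene, averaged 25.2 ± 3.97 CPM in shMEK5 (SD, n = 2), 2.79 ± 0.325 CPM in shERK5 and 7.33 ± 1.21 CPM in shCTRL (SD, n = 3 each). Its log2 fold changes were 1.65 (SE 0.14, limma adjusted p = 9.72e-06) in shMEK5 and -1.13 (SE 0.12, limma adjusted p = 2.8e-05) in shERK5. Tnc, the matrix protein tenascin-C, averaged 17.7 ± 2.26 CPM in shMEK5 (SD, n = 2), 4.26 ± 0.379 CPM in shERK5 and 12.4 ± 0.664 CPM in shCTRL (SD, n = 3 each). It rose by 0.47 (SE 0.10, limma adjusted p = 0.0028) in shMEK5 and fell by 1.36 (SE 0.09, limma adjusted p = 7.79e-07) in shERK5. The direct differences between the knockdowns were -2.78 for Ccl2 and -1.83 for Tnc (limma adjusted p = 5.51e-07 and 7.2e-07).

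The antioxidant genes that NRF2 reads together with small Maf proteins were mostly lower. Of 15 tested, 12 were lower and 1 higher in shMEK5, and 8 lower and 2 higher in shERK5, with medians of -0.35 and -0.22. Nqo1, a quinone reductase gene, averaged 16.2 ± 0.259 CPM in shMEK5 (SD, n = 2), 12.5 ± 0.754 CPM in shERK5 and 36.9 ± 3.28 CPM in shCTRL (SD, n = 3 each), and fell in both. So did G6pdx of the pentose phosphate pathway, which fell by 0.96 in shMEK5 and fell by 0.68 in shERK5, and the glutathione transferase gene Gsta4, which fell by 0.83 and fell by 0.58. The cystine transporter gene Slc7a11 fell by 0.68 in shMEK5 and fell by 1.45 in shERK5, and the ferritin gene Ftl1 fell by 0.15 and fell by 1.12. Me1, malic enzyme, fell by 0.23 in shMEK5 and rose by 0.40 in shERK5. Txnrd1, thioredoxin reductase, rose by 0.15 in shMEK5 and had -0.08 in shERK5 (limma adjusted p = 0.122).

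Among other leucine zipper partners, 19 of 24 genes were tested. In shMEK5, 5 were higher and 4 lower, and in shERK5, 3 were higher and 9 lower. Atf2, a Jun partner, fell in both, by 0.61 and 0.36, and Crem, a cyclic AMP response factor gene, rose in both, by 0.35 and 0.23. Nfe2l2, which encodes NRF2, was at 187 ± 2.59 CPM in shMEK5 (SD, n = 2), 148 ± 5.82 CPM in shERK5 and 210 ± 8.56 CPM in shCTRL (SD, n = 3 each), and fell by 0.16 (SE 0.05, limma adjusted p = 0.0286) in shMEK5 and by 0.49 (SE 0.05, limma adjusted p = 1.16e-05) in shERK5. The stress factor genes Ddit3 and Atf5 fell in both, Ddit3 by 0.54 in shMEK5 and 0.31 in shERK5, and Atf5 by 0.35 and 0.17. Nfe2l1, a relative of NRF2, rose by 0.13 in shMEK5 and fell by 0.23 in shERK5. Of the BACH repressor genes, Bach2, at 2.5 CPM on average, rose by 1.06 in shMEK5 and by 0.29 in shERK5. Bach1 had 0.07 in shMEK5 (limma adjusted p = 0.315) and fell by 0.19 in shERK5. Atf4 rose by 0.18 in shMEK5 and had 0.12 in shERK5 (limma adjusted p = 0.0896). In shERK5, Cebpb fell by 0.37 and Atf6 rose by 0.23, with -0.35 (limma adjusted p = 0.0906) and -0.02 (limma adjusted p = 0.746) in shMEK5.

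Of a list of kinases and factors upstream of Fos and Jun, MAP kinase phosphatases and ubiquitin ligases that turn Jun over, 20 of 23 genes were tested, with 4 higher and 7 lower in shMEK5 and 5 higher and 7 lower in shERK5. Srf, the serum response factor that drives immediate early genes, rose in both, by 0.39 (SE 0.05) in shMEK5 and 0.79 (SE 0.05) in shERK5, and its cofactor gene Elk3 rose by 0.41 and 0.31. The ERK1 gene Mapk3 fell by 0.62 and 0.79, and the ERK phosphatase genes Dusp4 by 0.66 and 0.97 and Dusp6 by 0.40 in each. The JNK1 gene Mapk8 rose by 0.19 in shMEK5 and had 0.09 in shERK5 (limma adjusted p = 0.101), and the p38 gene Mapk14 had 0.04 in shMEK5 (limma adjusted p = 0.723) and rose by 0.45 in shERK5. Immediate early genes outside AP-1, 22 of 25 tested, were split, with 9 higher and 8 lower in shMEK5 and 5 higher and 9 lower in shERK5. Ccn1, a matricellular gene, rose in both, by 1.97 and 1.81, and Klf4 fell in both, by 0.32 and 0.67. Csrnp1 rose in both, by 0.93 in shMEK5 and 0.69 in shERK5, as did Klf10, by 0.73 and 0.89. Ier2 fell by 0.36 in shMEK5 and fell by 0.33 in shERK5, Ier3 fell by 0.29 and fell by 0.56, and Ier5 fell by 0.20 and fell by 0.37. Larger falls were those of Egr1, Egr2 and Egr3, each under 5 CPM on average. They fell by 0.56, 0.57 and 0.99 in shMEK5 and by 0.75, 0.78 and 0.99 in shERK5. Ccn2 rose by 2.01 in shMEK5 and had -0.16 in shERK5 (limma adjusted p = 0.0626), and Dusp5 fell by 0.37 in shMEK5 and had 0.16 in shERK5 (limma adjusted p = 0.167). The lists overlap, as Srf and Dusp1 stand in both of the last 2 and Hmox1 in those of AP-1 and NRF2 targets.

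**Figure D4:**
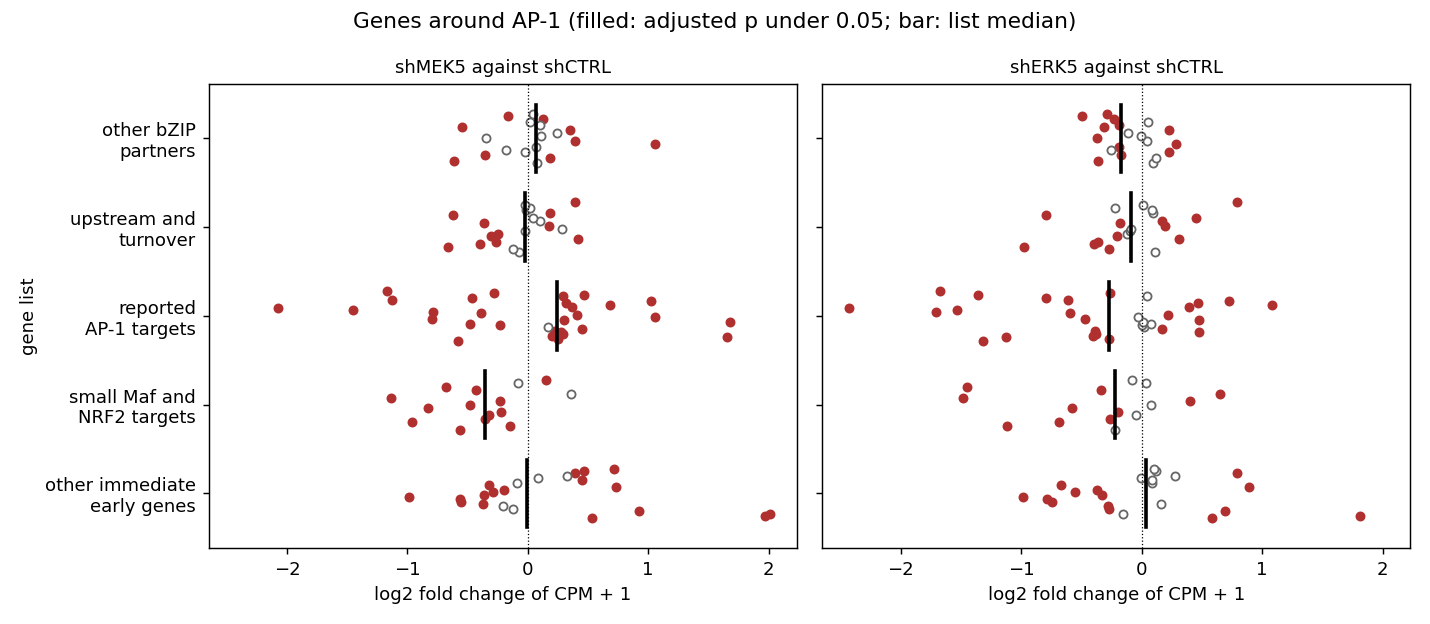
log2 fold change of CPM + 1 of each tested gene in the 5 lists, in shMEK5 against shCTRL (left) and shERK5 against shCTRL (right), on one shared axis. Filled points passed at adjusted p under 0.05 and black bars are list medians. The median of the reported AP-1 targets is 0.24 on the left and -0.27 on the right, and that of the small Maf and NRF2 targets is below 0 in both.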

How the data were processed

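Total RNA depleted of ribosomal RNA was sequenced from 8 libraries grouped by their titles. The submitters' processing notes name STAR and mm10 (GRCm38). Not given in the sources used here are the aligner version, the gene annotation, and how reads were counted with regard to strand, although the library kit named in the labels' protocols is stranded. The deposited values are CPM, per the file headers and values scaled by the authors to 1000000 gene-assigned reads per library. In 100% of values above 0, the CPM was a whole multiple of 1 read within 0.01 read, so the reads could be recovered. Symbols came from RefSeq for 24374 genes and from GENCODE for 7, and 73 had none.

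The test was limma 3.58.1 (R 4.3.3) with trend and robust moderation on log2(CPM + 1), all 8 libraries, a mean per group and no covariate, for the 11623 genes with at least 1 CPM in at least 2 libraries. The plan named edgeR for counts, and the CPM unit called for limma instead. Run on the recovered reads, edgeR 4.0.16 made 5627 calls for shMEK5 and 7350 for shERK5. DESeq2 1.42.0 was another alternative. Simulated data with known changes were used to test the limma procedure. The genes, lists and naming rule were chosen with earlier results of these data known. Named from each list were up to 3 genes per direction with the greatest fold change among called genes of at least 5 CPM on average in each comparison with shCTRL. Mafg, Bach1, Bach2, Egr1, Egr2, Egr3, Cd44, Ccnd1, Axl and Fn1 were added after their values were seen. The values of genes named by the rule in the other knockdown were likewise added after they were seen. One gene that the rule names is not reported here. Genes most like a member were the 2 with the highest Pearson r. Library pairs within a group differed by 7.45 to 37.4 chi-square per degree of freedom, so none was counted as a duplicate. Exon lengths were unions of GENCODE M21 exons.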

Additional observations from a re-analysis of the deposited data

Results flagged for a closer look

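The effects of the hairpins differed from each other by the direct test of shERK5 against shMEK5 for 4 of the 10 genes, beside 39.4% of all genes tested. Maff differed by -1.95 on the log2 scale (limma adjusted p = 1.52e-07), being higher than shCTRL in 2 of 2 shMEK5 libraries and lower in 3 of 3 shERK5 libraries. Atf3 differed by 0.25 (limma adjusted p = 0.0154), Mafk by 0.24 (limma adjusted p = 0.00682) and Fosl2 by 0.22 (limma adjusted p = 0.0431), each higher in 3 of 3 shERK5 libraries than in both shMEK5 libraries. The call for Maff held in all 18 alternatives, those for Atf3 and Mafk in 17 each and that for Fosl2 in 7.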

How the results depend on the processing

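The alternatives were pseudocounts of 0.25 and 4, no filter, a mean of at least 5 CPM, TMM and RLE scaling, edgeR, DESeq2, each replicate left out, the replicate number as a block and only the 2 groups compared. Fos and Fosb have no value under the stricter filter. The calls for Fosl2 and Maff in both knockdowns, Atf3 in shMEK5 and Mafk in shERK5 held in all 18 alternatives. With 1 replicate left out, the calls among the 10 genes ranged from 3 to 4 in shMEK5, from 3 to 6 in shERK5 and from 2 to 5 between the knockdowns, and the genes called from 3929 to 6055, from 6416 to 7278 and from 2864 to 4825. Left with 1 shMEK5 library, that library is assumed to vary like the other groups. Without shMEK5 replicate 1 or without shMEK5 replicate 2, 2 of the 10 genes were called between the knockdowns, and without replicate 1, 2864 genes.

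The shMEK5 value of Mafk, -0.01, changed sign to 0.015 with TMM, 0.011 with RLE, 0.014 with edgeR and 0.010 with DESeq2. With a replicate left out, uncalled values changed sign, with ranges of -0.048 to 0.033 for Mafk and -0.031 to 0.31 for Junb in shMEK5, -0.035 to 0.16 for Fosb and -0.016 to 0.27 for Junb in shERK5, and -0.054 to 0.041 for Fosl1 and -0.20 to 0.14 for Junb between the knockdowns. The cause was not tested. The Fosl2 share of Fos family RNA with the longest transcript as length was 39% in shMEK5, 42.6% in shERK5 and 30.7% in shCTRL, and the Jun share of Jun family RNA in shCTRL was then 30.1%. TMM gave 2923 higher and 2763 lower genes in shMEK5, against 2684 and 2979 as deposited, and RLE 2882 and 2783.

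Whether the replicate numbers pair the libraries was not settled. Deviations of same-numbered libraries correlated between -0.19 and 0.52, and not every library correlated best with its own number. Same-numbered shMEK5 and shERK5 libraries correlated at 0.46 and 0.52. With 2 shMEK5 libraries the deviations are mirror images, so these values cannot be read separately. With the replicate block, 4 of the 10 genes were called in shMEK5, 4 in shERK5 and 3 between the knockdowns, where Fosl2 had 0.18 (limma adjusted p = 0.0938). Depth limits Fos and Fosb, which rest on 46 to 133 reads per library.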
